A study of Arabidopsis thaliana with 12 samples.

Results

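The comparison described here sets *Arabidopsis thaliana* seedlings of the line *rve8-1 RVE8::RVE8:GR* (*RVE8:GR*) treated with dexamethasone (DEX) against seedlings of the same line given solvent alone (mock). It was chosen by the group labels of the libraries and takes 6 of the 12 RNA-seq libraries of the series, 3 for *RVE8:GR* + DEX and 3 for *RVE8:GR* + mock. The other 6 libraries come from *rve8-1* plants without the transgene (*rve8*), 3 after DEX and 3 after mock treatment. They give the response to the steroid itself and the levels in plants without the fusion protein. They were also fitted together with the *RVE8:GR* libraries, and so enter the filter on low counts, the scaling and the estimate of spread. All plants were whole seedlings, 7 days old, grown on MS medium with 3% sucrose under 12 h of light and 12 h of dark. About 30 seeds were pooled per sample. DEX or the same volume of solvent was added in liquid medium 4 h after lights on (Zeitgeber time 4, ZT4), and tissue was frozen after 4 h of incubation at ZT8. The sample labels give a DEX concentration of 30 mM, while the study's methods give 30 µM. Both lines carry the *rve8-1* mutation, and in *RVE8:GR* the fusion protein is driven by the *RVE8* promoter. The study's methods call the samples of a group biological replicates. The labels do not say whether these were grown in separate experiments, so p-values measure the spread between these samples, which may in part be technical.

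RVE8 is a MYB-like transcription factor of the CCA1/LHY family. In *Arabidopsis* the circadian clock is built from transcription factors that peak at different times of day and act on one another's promoters. CCA1 and LHY, which peak around dawn, repress genes whose promoters carry the evening element (EE), whereas RVE8 binds the same element and activates. The protein made by the fusion gene joins RVE8 to the ligand-binding domain of the rat glucocorticoid receptor, which keeps its partner out of the nucleus until a steroid such as DEX is bound. The comparison therefore asks which transcripts differ after RVE8 has been let into the nucleus for an afternoon, together with any effect of DEX that does not need the fusion protein.

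Levels are given as CPM, counts scaled to one common library total with TMM factors. A gene was called higher or lower where edgeR's quasi-likelihood test gave a Benjamini-Hochberg adjusted p under 0.01 over the 19961 genes tested, and every adjusted p below comes from that test. Log2 fold changes are *RVE8:GR* + DEX over *RVE8:GR* + mock and are given with their standard error. The libraries hold 17487783 to 21713130 counts in the 6 *RVE8:GR* samples, so that 3 counts correspond to 0.138 to 0.172 CPM. *RVE8* itself (AT3G09600) measured 5.19, 5.52 and 6.31 CPM in the DEX libraries, against 9.76, 8.76 and 8.35 CPM in the mock libraries. This difference did not pass the test (adjusted p = 0.103), but the gene was called lower when only the *RVE8:GR* libraries were fitted. It had 0.992 ± 0.368 CPM in *rve8* + DEX and 1.13 ± 0.810 CPM in *rve8* + mock (SD, n = 3). DEX acts on the protein, and the level of this transcript against *rve8* checks the line. The study, by its own test, lists *RVE8* among the clock genes with lower transcript levels after induction. All 6 leaf and all 6 root markers were detected and none was called in *RVE8:GR*. The summed level of the leaf markers was 61147 to 64342 CPM in the DEX libraries, against 56732 to 59950 CPM in the mock libraries. In *rve8*, 4 of the 6 leaf markers were called higher, against 3.96% of all genes, and no root marker was called. The leaf sum in *rve8* was 69336 to 79146 CPM after DEX and 52210 to 64432 CPM after mock treatment. What part this has in differences between the lines was not tested. Of the flower markers only *SEP3* passed the filter on low counts. The summed seed storage markers varied within each group, at 141 to 210 CPM (DEX) and 202 to 342 CPM (mock), with 4 of 5 tested and none called, and their part in the results was not tested.

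Incubation with DEX for 4 h changed a small part of the transcriptome, and mostly by less than 2-fold. Of the 19961 genes tested, 414 were called higher (2.07%) and 271 lower (1.36%), together 3.43%. The median log2 fold change over all tested genes was -0.0022. Among the genes called higher, 60 rose at least 2-fold, 130 rose between 1.5-fold and 2-fold and 224 rose by less, with a median log2 fold change of 0.56. The genes called lower had a smaller median, -0.50, and 20 of them fell at least 2-fold, 73 between 1.5-fold and 2-fold and 178 by less. In all 685 called genes the 3 DEX libraries lay entirely above or entirely below the 3 mock libraries. Such a gap alone, with no test, was found in 12.5% of all tested genes upwards and 11.5% downwards. The called genes also had more counts than the rest, with a median of 41.2 CPM for those called higher and 39.7 CPM for those called lower, against 16.9 CPM over all tested genes, and with median cDNA lengths of 1531, 1844 and 1695 bases. In whole seedlings, fewer cells of a type and less RNA per cell cannot be told apart. The threshold itself cuts through a continuous distribution. The last genes inside it had adjusted p = 0.00985 (higher) and 0.00993 (lower), and the first gene outside it had 0.010. Leaving out 1 library at a time changed the number of calls. Genes called higher numbered 241 without DEX 1, 226 without DEX 3, 257 without mock 1 and 234 without mock 2, and those called lower 143 without DEX 1, 157 without DEX 3 and 143 without mock 2.

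Among the called genes with a mean of at least 5 CPM and no overlap between the DEX and mock libraries, *DIN1* (AT4G35770), a classic marker of darkness and sugar depletion, rose most, with 29.4, 35.2 and 33.1 CPM in the DEX libraries, against 9.12, 3.32 and 4.35 CPM in the mock libraries. Its DEX libraries were tightly grouped while 1 mock library stood above the other two, and the log2 fold change of 2.53 ± 0.32 (adjusted p = 0.00124) was no longer past the threshold when the *RVE8:GR* libraries were fitted on their own. *DJC76* (AT5G23240), a chloroplast J-domain co-chaperone, rose nearly as far and with far less scatter, with 47.5, 38.7 and 41.2 CPM in the DEX libraries, against 8.19, 6.37 and 8.12 CPM in the mock libraries (log2 fold change 2.49 ± 0.12, adjusted p = 1.2e-11). It had the smallest p of all genes called higher among those named here. *PDF2.1* (AT2G02120), a plant defensin, had 10.2, 12.8 and 12.7 CPM in the DEX libraries, against 2.22, 3.11 and 4.00 CPM in the mock libraries (adjusted p = 1.7e-05), so that no DEX value came near a mock value. Several less studied genes rose about 3-fold. AT1G07050, annotated as a CCT-motif protein like CONSTANS and the PRR proteins, had 34.0, 31.3 and 27.5 CPM in the DEX libraries, against 11.3, 9.02 and 11.7 CPM in the mock libraries, a 2.90-fold rise. In *rve8* it had 6.92 ± 1.39 CPM after DEX and 7.03 ± 1.78 CPM after mock treatment (SD, n = 3), and the response differed between the lines by 1.56 ± 0.24 (log2, adjusted p = 0.00128). AT3G15450, which encodes an aluminium-induced protein with YGL and LRDR motifs, had 113, 101 and 120.2 CPM in the DEX libraries, against 41.4, 34.3 and 40.4 CPM in the mock libraries. AT3G62550, annotated as an adenine nucleotide alpha hydrolase-like protein, had 152, 161 and 177 CPM in the DEX libraries, against 70.4, 47.3 and 56.0 CPM in the mock libraries. Both groups of values were well separated in each of these genes (adjusted p = 6.1e-07 and 4.6e-07).

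Among the called genes with a mean of at least 5 CPM and no overlap between the DEX and mock libraries, *TT19*, a gene of anthocyanin transport, fell most, with a log2 fold change of -1.74 ± 0.23. *GPT2* (AT1G61800) encodes a plastid glucose-6-phosphate/phosphate translocator, and it had 39.9, 38.5 and 28.5 CPM in the DEX libraries, against 88.8, 87.2 and 76.5 CPM in the mock libraries, a 2.36-fold drop (adjusted p = 8.0e-07). In *rve8* its level was already low, with 28.0 ± 2.17 CPM after DEX and 32.1 ± 2.62 CPM after mock treatment, so the DEX libraries of *RVE8:GR* lay closer to *rve8* than the mock libraries did. *BGLU6* (AT1G60270), a beta-glucosidase of flavonol glycosylation, had 3.70, 4.13 and 4.82 CPM in the DEX libraries, against 11.6, 9.12 and 7.89 CPM in the mock libraries (log2 fold change -1.19 ± 0.16). *NIP6;1* (AT1G80760), a boric acid channel, had 4.07, 4.08 and 3.78 CPM in the DEX libraries, against 9.57, 8.71 and 6.63 CPM in the mock libraries. *ERD9* (AT1G10370), a glutathione S-transferase, had 11.5, 13.4 and 9.23 CPM in the DEX libraries, against 24.1, 30.6 and 18.4 CPM in the mock libraries. In all of these the lowest mock value lay above the highest DEX value, but the call of *ERD9* was lost when only the *RVE8:GR* libraries were fitted. Among the decreases with the smallest p, *ATCSLA09* (AT5G03760), a mannan synthase, stood at 41.7, 43.8 and 42.3 CPM with DEX, against 68.3, 71.4 and 68.1 CPM with mock (adjusted p = 1.9e-07). *NIT1* (AT3G44310), a nitrilase, was the called gene with one of the largest losses in absolute level, with 329, 359 and 350.1 CPM in the DEX libraries, against 556, 575 and 543 CPM in the mock libraries.

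**Figure D1:**
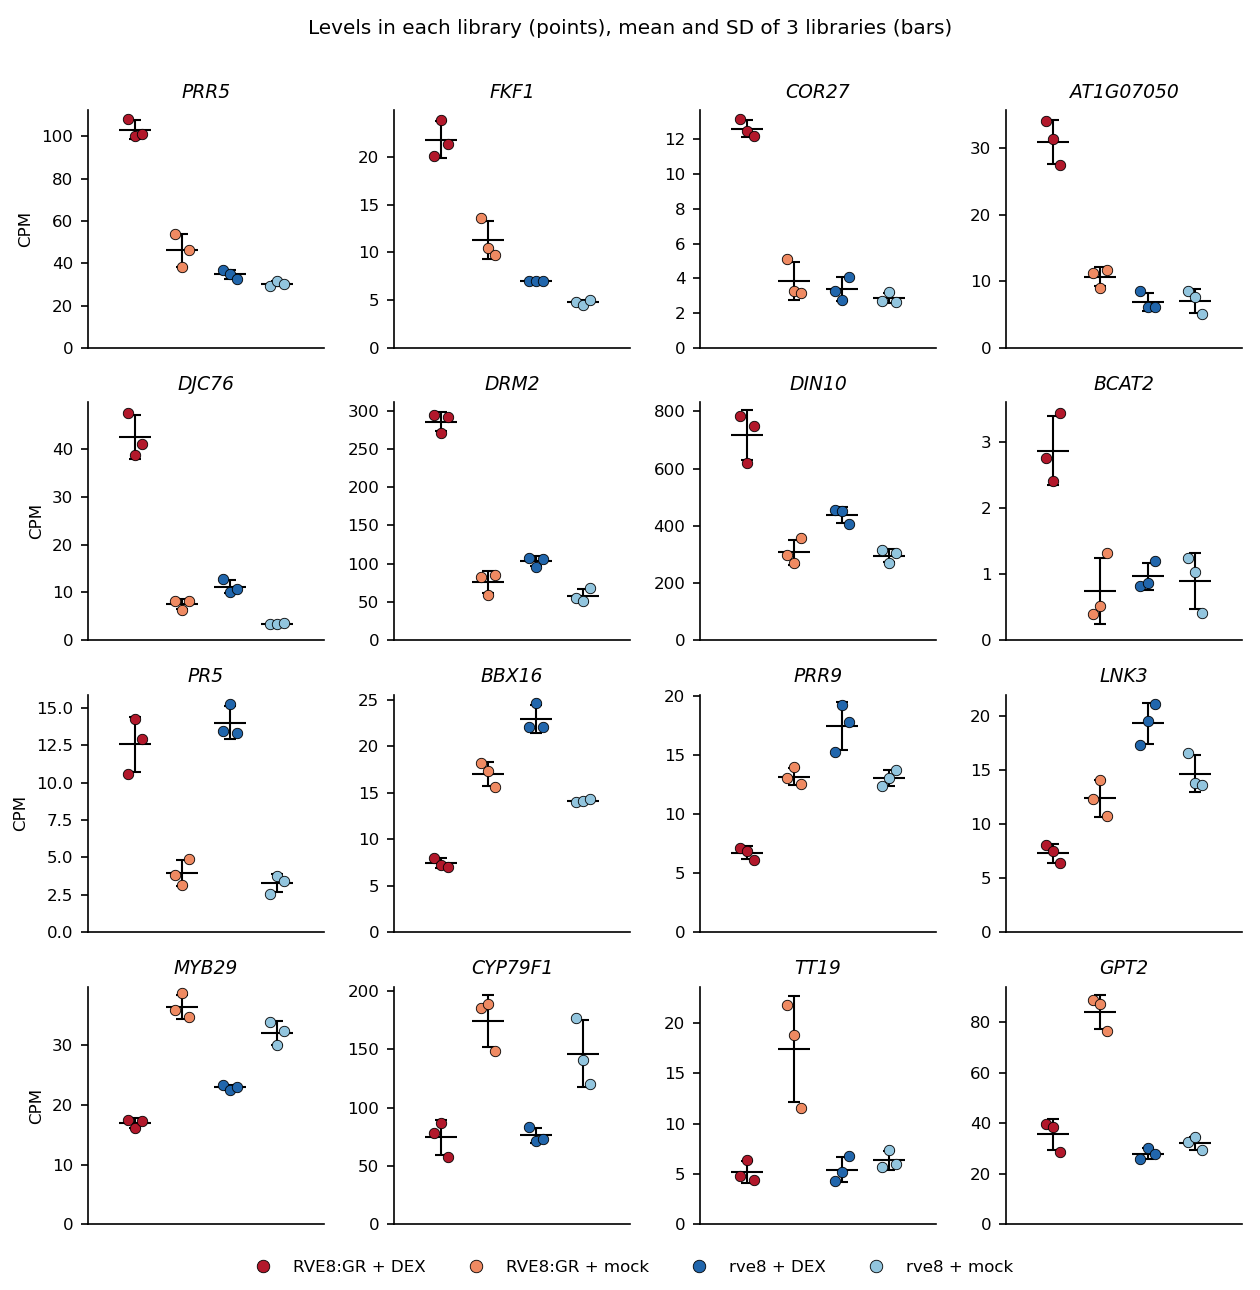
Level in CPM of 16 transcripts in each of the 12 libraries (points), with the mean and SD of the 3 libraries of a group (bars), from left to right *RVE8:GR* + DEX, *RVE8:GR* + mock, *rve8* + DEX and *rve8* + mock, each panel with its own axis from 0. *PRR5*, *COR27* and AT1G07050 are high in *RVE8:GR* + DEX alone, *PR5* is high after DEX in both lines, and *BBX16*, *PRR9* and *LNK3* are lowest in *RVE8:GR* + DEX.

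Of the 12 clock genes with an evening peak, 7 rose and none fell, with a median log2 fold change of 0.54. These were *PRR5*, *TOC1*, *GI*, *LUX*, *ELF3*, *ELF4* and *FKF1*. Over all genes 2.07% were called higher and 1.36% lower. The lists here and below were chosen with earlier results of these data known, so their counts are not comparable with those shares. *PRR5* and *TOC1* encode pseudo-response regulators that repress the dawn genes. *PRR5* (AT5G24470, chromosome 5 from 8356204 to 8358546) had 108, 99.9 and 101 CPM in the DEX libraries, against 53.7, 38.3 and 46.2 CPM in the mock libraries (log2 fold change 1.16 ± 0.09, adjusted p = 5.9e-08). *TOC1* (AT5G61380) had 112, 119.8 and 111 CPM in the DEX libraries, against 76.3, 68.0 and 74.8 CPM in the mock libraries (log2 fold change 0.64 ± 0.07). In both, every DEX value lay well above every mock value. *FKF1* (AT1G68050, chromosome 1 from 25508639 to 25510907), the blue-light receptor F-box protein of the photoperiod pathway, had 20.1, 23.9 and 21.4 CPM in the DEX libraries, against 13.6, 10.5 and 9.78 CPM in the mock libraries, a 1.92-fold rise. *GI* (AT1G22770), which binds FKF1 and its relative ZTL, rose by less, with 183, 177 and 178 CPM in the DEX libraries, against 139, 125 and 135 CPM in the mock libraries (1.35-fold). The evening complex is a repressor made of LUX, ELF3 and ELF4. Its DNA-binding subunit *LUX* (AT3G46640) had 67.4, 53.2 and 69.8 CPM in the DEX libraries, against 42.9, 36.7 and 44.2 CPM in the mock libraries, and *ELF4* (AT2G40080) had 31.4, 37.9 and 34.9 CPM in the DEX libraries, against 23.8, 23.4 and 24.0 CPM in the mock libraries. *ELF3* (AT2G25930) differed least, with 75.3, 71.0 and 76.9 CPM in the DEX libraries, against 59.8, 62.7 and 61.1 CPM in the mock libraries, and its call (adjusted p = 0.00734) was lost in most alternatives, among them the exact test and the fits without DEX 1, DEX 3, mock 1, mock 2 or mock 3. Without mock 2 the *ELF4* call was lost as well and 5 evening genes remained called. Among the members that did not pass, *PRR3* (AT5G60100), which protects TOC1 from degradation, measured 16.6, 19.0 and 16.2 CPM in the DEX libraries, against 13.7, 10.2 and 11.8 CPM in the mock libraries (adjusted p = 0.0128). The LUX homologue *BOA* (AT5G59570), at 3.09, 2.60 and 2.24 CPM with DEX and 1.63, 1.97 and 1.43 CPM with mock, did not pass either. The F-box genes *ZTL* and *LKP2* had log2 fold changes of 0.01 ± 0.10 and 0.18 ± 0.09, and that of the TCP factor gene *CHE* was -0.06 ± 0.08. None of the 12 evening genes was called in *rve8*, where the median log2 fold change was 0.22, but a difference of response between the lines passed the test only for *PRR5* (0.97 ± 0.13, adjusted p = 2.7e-04) and *ELF4* (0.68 ± 0.14, adjusted p = 0.00903).

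Of 4 genes of clock output in the cold and in RNA binding, 3 rose. *COR27* (AT5G42900) and *COR28* (AT4G33980) encode a pair of cold-regulated nuclear proteins that act on clock and light signalling. *COR27* had 13.2, 12.5 and 12.2 CPM in the DEX libraries, against 5.13, 3.27 and 3.15 CPM in the mock libraries (log2 fold change 1.70 ± 0.17, adjusted p = 1.2e-06), and *COR28* had 8.94, 8.72 and 8.37 CPM in the DEX libraries, against 4.04, 2.75 and 3.6 CPM in the mock libraries (1.32 ± 0.17, adjusted p = 3.2e-05). Both have few counts and changed by a large factor. In *rve8* both stayed near the mock level, where *COR27* had 3.39 ± 0.670 CPM after DEX and 2.86 ± 0.303 CPM after mock treatment. The response of both genes differed between the lines, by 1.45 ± 0.27 and 1.4 ± 0.26 (adjusted p = 0.00385 and 0.00385). *GRP7* (AT2G21660), a glycine-rich RNA-binding protein whose transcript is a standard clock output, had 1520.3, 1338 and 1511 CPM in the DEX libraries, against 1155, 1003 and 988 CPM in the mock libraries, a 1.39-fold rise. Its paralogue *GRP8* (AT4G39260) measured 480.2, 393 and 501 CPM in the DEX libraries, against 469.8, 405 and 417 CPM in the mock libraries, and its groups overlapped.

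The 14 genes of the morning and day clock moved in both directions, with a median log2 fold change of -0.20. *PRR9* and *LNK3* fell, and *PRR7* and *RVE7* rose. *PRR9* (AT2G46790), the first of the PRR repressors to appear in the day, had 7.16, 6.91 and 6.13 CPM in the DEX libraries, against 13.1, 13.9 and 12.5 CPM in the mock libraries (log2 fold change -0.96 ± 0.12, adjusted p = 1.1e-05). It shares 33.7% of its 50-base stretches with other cDNAs, so its counts could include reads of a near-identical copy. *LNK3* (AT3G12320), a relative of the LNK coactivators that bind RVE8, had 8.05, 7.47 and 6.36 CPM in the DEX libraries, against 12.3, 14.1 and 10.7 CPM in the mock libraries (-0.76 ± 0.13). In *rve8* both genes had higher levels after DEX than after mock treatment, with log2 fold changes of 0.42 ± 0.11 and 0.40 ± 0.12 that did not pass there (adjusted p = 0.0136 and 0.0331). The difference of response between the lines was -1.38 ± 0.16 for *PRR9* and -1.16 ± 0.18 for *LNK3* (adjusted p = 4.1e-05 and 6.6e-04). *PRR7* (AT5G02810) had 263, 257 and 248 CPM in the DEX libraries, against 202, 189.5 and 198 CPM in the mock libraries (0.38 ± 0.06), and its log2 fold change in *rve8* was much the same (0.39 ± 0.06). *RVE7* (AT1G18330), a MYB-like relative of RVE8, had 47.1, 37.6 and 44.7 CPM in the DEX libraries, against 29.1, 29.0 and 31.9 CPM in the mock libraries. Its call was lost without DEX 1, and it shares 51.9% of its stretches with other cDNAs. The dawn repressors showed no call. *CCA1* (AT2G46830) had 16.7, 16.1 and 15.6 CPM in the DEX libraries, against 20.4, 20.2 and 18.5 CPM in the mock libraries and *LHY* (AT1G01060) had 2.62, 2.50 and 2.24 CPM in the DEX libraries, against 3.25, 3.47 and 3.09 CPM in the mock libraries, and neither passed (adjusted p = 0.128 and 0.320). In *rve8*, 6 members of this list were called higher, against 3.96% of all genes. For *PRR9*, *LNK3*, *CCA1*, *LNK1* and *LNK2* the response was lower in *RVE8:GR* than in *rve8* by the test of the difference. *CCA1* stood at 52.8 ± 8.72 CPM in *rve8* + DEX and 28.7 ± 2.71 CPM in *rve8* + mock, and the difference of response was -1.17 ± 0.15 (adjusted p = 8.7e-05).

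Genes of photoperiodic flowering and of the B-box zinc-finger family also went both ways. *COL9* (AT3G07650), a CONSTANS-like gene that delays flowering, had 27.1, 24.7 and 24.2 CPM in the DEX libraries, against 12.0, 12.2 and 12.4 CPM in the mock libraries, a 2.08-fold rise (adjusted p = 4.0e-07). The DOF factors CDF1 and CDF3 repress *CO* and *FT*. *CDF1* (AT5G62430) had 12.4, 9.83 and 10.0 CPM in the DEX libraries, against 17.7, 19.9 and 18.2 CPM in the mock libraries, a 1.72-fold drop, and *CDF3* (AT3G47500) had 44.9, 44.5 and 39.3 CPM in the DEX libraries, against 66.7, 61.8 and 57.8 CPM in the mock libraries. *COL1* (AT5G15850) fell by 0.45 on the log2 scale, a call that was lost without DEX 1, DEX 2, mock 1 or mock 2. *CO* (AT5G15840) lay between 1.04 and 1.68 CPM in all 6 libraries and was not called, and *FT* had at most 4 counts in a DEX library and 6 in a mock library and was not tested. Of 17 B-box genes tested, *BBX22* rose, and *BBX16*, *BBX18* and *BBX25* fell. *BBX22* (AT1G78600), which promotes the greening of seedlings, had 97.0, 86.5 and 92.6 CPM in the DEX libraries, against 60.0, 57.1 and 63.1 CPM in the mock libraries. *BBX16* (AT1G73870) had 8.00, 7.28 and 6.99 CPM in the DEX libraries, against 18.2, 17.4 and 15.7 CPM in the mock libraries (log2 fold change -1.20 ± 0.10, adjusted p = 1.3e-07). In *rve8* it rose instead, to 22.1, 24.7 and 22.1 CPM after DEX, against 14.1, 14.1 and 14.4 CPM after mock treatment (adjusted p = 8.0e-05), so that the change had opposite signs in the lines and the difference of -1.89 ± 0.14 was the largest negative one to pass among the genes named here (adjusted p = 1.2e-07). *BBX18* (AT2G21320), a negative regulator of light signalling, had 6.97, 4.50 and 6.31 CPM in the DEX libraries, against 10.8, 12.4 and 10.8 CPM in the mock libraries, and *BBX25* (AT2G31380), which restrains HY5, had 21.9, 24.8 and 26.4 CPM in the DEX libraries, against 34.0, 40.4 and 39.2 CPM in the mock libraries. A further family member, *BBX8* (AT5G48250), had 32.8, 31.4 and 29.9 CPM in the DEX libraries, against 24.8, 20.4 and 22.0 CPM in the mock libraries and was called higher, but not without DEX 1 or without mock 2.

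Photoreceptors and their signalling partners showed small changes. Of 22 members of the light and PIF list, *PHYA* and *CRY2* were called higher and *SPA1* and *SPA3* lower, with a list median of -0.04. *CRY2* (AT1G04400), a blue-light receptor, had 129, 125 and 120.5 CPM in the DEX libraries, against 92.7, 85.4 and 101 CPM in the mock libraries (1.34-fold). The SPA proteins work with COP1 to remove light-signalling factors. *SPA3* (AT3G15354) had 21.2, 22.1 and 24.2 CPM in the DEX libraries, against 30.3, 31.0 and 28.2 CPM in the mock libraries, and its call was lost without DEX 1 or mock 2. *SPA1* (AT2G46340) was called at adjusted p = 0.00815 and lost its call without DEX 1, DEX 2, DEX 3 or mock 2. The *PHYA* call (adjusted p = 0.00732) was lost when any library other than mock 1 was left out.

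The promoters of the genes called higher carry the EE more often than those of other genes. For each gene the 1500 bp that end at its start codon were taken as the promoter, and both of their strands were searched for AAATATCT, the short form of the EE. It was found in 43.6% of the 408 promoters of genes called higher (95% Wilson interval 38.9% to 48.5%), in 21.0% of the 267 of genes called lower (16.5% to 26.3%), in 20.0% of the 18649 of genes not called (19.4% to 20.6%) and in 20.5% of all 19324. The share of genes called higher went up with the number of copies. It was 1.5% with no copy, 3.39% with 1, 7.98% with 2, 23.2% with 3 (16 of 69 genes) and 53.3% with at least 4 (8 of 15 genes). The share called lower was 1.37% with no copy, 1.39% with 1 and 1.84% with 2. None of the 69 genes with 3 copies or of the 15 with more was called lower. In groups of these sizes a count of 0 is near the 1.36% over all genes. In *rve8* the corresponding shares called higher were 3.79% with no copy, 4.84% with 1, 6.54% with 2, 7.25% with 3 and 6.67% with at least 4. The copies also lay nearer to the gene. In promoters of genes called higher there were 21.1 copies per 100 promoters in the 250 bp next to the start codon and 6.86 in the 250 bp farthest from it, against 3.66 and 3.18 in genes not called.

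**Figure D2:**
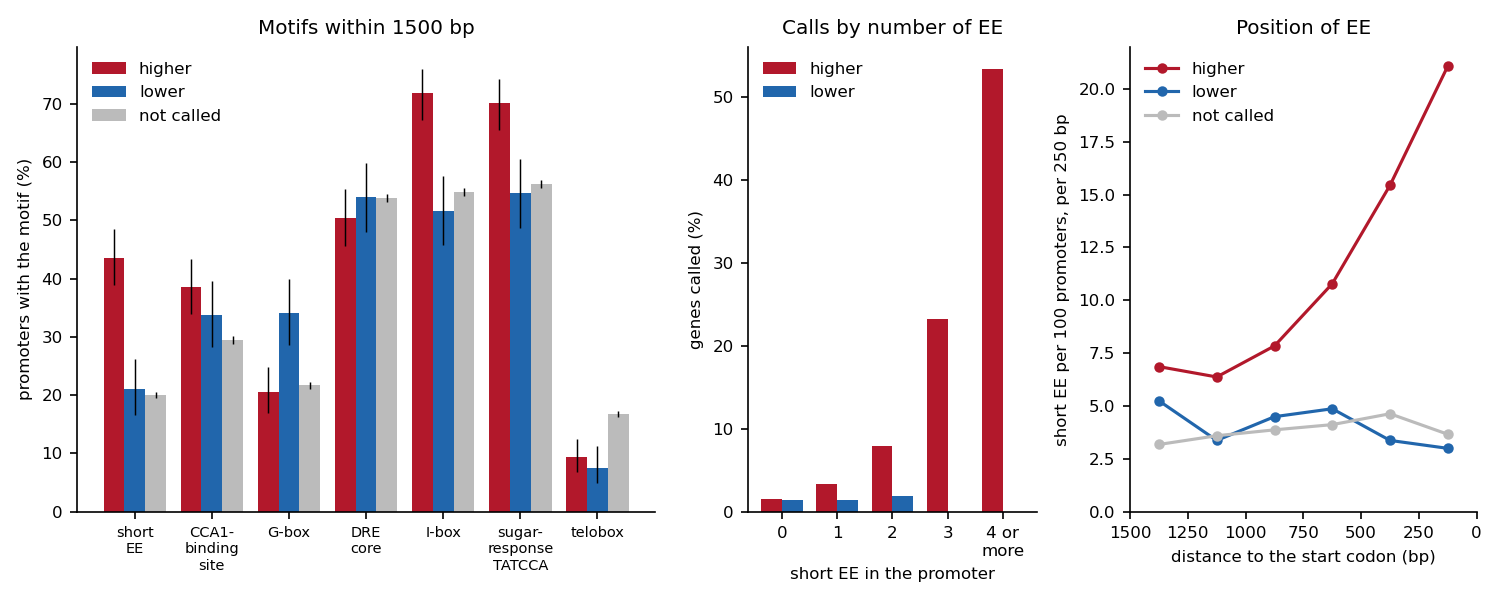
Motifs within 1500 bp of the start codon for genes called higher, lower and not called. Left, percent of promoters with each motif, with 95% Wilson intervals. Middle, percent of genes called by number of short EE. Right, short EE per 100 promoters in steps of 250 bp. The short EE is in 43.6% of promoters of genes called higher and in 20.0% of those not called. Its density is highest next to the start codon in genes called higher, but not in genes called lower or not called.

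Other motifs were searched in the same windows, also on both strands. The CCA1-binding site AAAAATCT, which differs from the short EE at 1 base, was in 38.5% of promoters of genes called higher, 33.7% of those called lower and 29.5% of those not called. The I-box core GATAAG was in 71.8%, 51.7% and 54.9% in the same order, and the sugar-response element TATCCA in 70.1%, 54.7% and 56.2%. These motifs share letters with the EE and with each other (the reverse strand of GATAAG, for example, holds TATC). The I-box was still more frequent among promoters without an EE, at 67.4% for genes called higher and 55.0% for genes not called. The G-box CACGTG, the core site of many bHLH and bZIP factors, was most frequent among genes called lower, with 34.1% (28.7% to 40.0%), against 20.6% (16.9% to 24.8%) among genes called higher and 21.7% among those not called. The DRE core CCGAC was in 50.5%, 53.9% and 53.9% of promoters of genes called higher, lower and not called. The telobox AAACCCTAA, a motif of ribosomal protein genes, was rarer among called genes in either direction, with 9.31% (higher) and 7.49% (lower), against 16.7% among genes not called. The median AT content was 67.8% (higher), 67.5% (lower) and 66.1% (not called). A match is a description of letters and not a bound site.

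The 6 clusters of EE printed here were chosen because each holds at least 3 copies within 240 bp, lies upstream of the transcript and, with 30 bases on either side, outside every annotated gene including its own, and belongs to a gene called higher and named here. The clusters of *COR27* and *GRP7* were left out because they reach into or within 30 bases of their own annotated gene. Each is read 5′ to 3′ on the strand of its gene, with 30 bases on either side of the outermost copies, and the capitals mark the short EE, AAATATCT on the strand shown or AGATATTT where it lies on the other one. Positions and sequence are those of the TAIR10.1 assembly in RefSeq. The cluster of *GI* lies at chr1:8060913-8061198 (forward strand), that of *FKF1* at chr1:25508237-25508490 (forward), that of *COL9* at chr3:2441008-2441201 (forward), that of AT3G15450 at chr3:5212581-5212832 (forward), that of *COR28* at chr4:16286236-16286369 (reverse) and that of *BBX8* at chr5:19563994-19564197 (reverse).
GI: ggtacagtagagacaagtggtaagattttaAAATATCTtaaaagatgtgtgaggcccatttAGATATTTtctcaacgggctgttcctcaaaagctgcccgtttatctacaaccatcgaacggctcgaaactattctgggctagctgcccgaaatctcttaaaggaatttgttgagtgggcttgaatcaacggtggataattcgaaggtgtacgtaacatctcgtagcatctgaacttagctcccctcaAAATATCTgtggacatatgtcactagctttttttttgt
FKF1: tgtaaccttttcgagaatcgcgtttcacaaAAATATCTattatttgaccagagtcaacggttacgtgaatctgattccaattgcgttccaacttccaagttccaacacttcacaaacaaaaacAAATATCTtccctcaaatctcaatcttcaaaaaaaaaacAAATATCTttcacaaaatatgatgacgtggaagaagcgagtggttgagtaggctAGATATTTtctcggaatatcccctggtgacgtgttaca
COL9: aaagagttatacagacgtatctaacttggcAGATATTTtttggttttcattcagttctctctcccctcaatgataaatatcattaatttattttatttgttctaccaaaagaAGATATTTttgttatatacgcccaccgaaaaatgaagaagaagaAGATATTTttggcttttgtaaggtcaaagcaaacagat
AT3G15450: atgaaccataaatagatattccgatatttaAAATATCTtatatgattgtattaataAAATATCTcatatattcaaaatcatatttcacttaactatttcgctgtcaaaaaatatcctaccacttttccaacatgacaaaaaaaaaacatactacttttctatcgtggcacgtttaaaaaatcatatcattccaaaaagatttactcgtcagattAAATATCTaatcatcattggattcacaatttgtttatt
COR28: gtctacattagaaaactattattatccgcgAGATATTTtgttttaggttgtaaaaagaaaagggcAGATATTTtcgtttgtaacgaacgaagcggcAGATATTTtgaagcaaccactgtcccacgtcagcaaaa
BBX8: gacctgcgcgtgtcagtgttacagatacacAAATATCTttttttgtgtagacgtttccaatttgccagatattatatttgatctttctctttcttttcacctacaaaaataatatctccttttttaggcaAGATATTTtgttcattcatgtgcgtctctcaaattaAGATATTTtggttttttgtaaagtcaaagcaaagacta
The window of *FKF1* has 4 of the 6 copies in its promoter and ends 246 bp before the start codon, and that of AT3G15450 has 3 of 5 and ends 217 bp before it. The windows of *GI*, *COL9*, *COR28* and *BBX8* lie 1199, 1292, 1289 and 880 bp from the start codon. The genes with these clusters rose between 1.35-fold (*GI*) and 2.88-fold (AT3G15450). The copies of *COL9*, *COR28* and AT3G15450 all have the same orientation within their window, while those of *GI*, *FKF1* and *BBX8* have copies in both. Genes with the same number of copies rose by different amounts. *PRR5* and *ELF4* both have 5 copies and rose 2.24-fold and 1.46-fold, *GRP7* has 4 and rose 1.39-fold, and *DIN1*, with the largest increase, has none.

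Several of the smallest p-values belong to co-chaperones. J-domain proteins recruit HSP70 chaperones to their clients, and of 114 genes annotated as DNAJ 8 rose and none fell (7.02% against 2.07% over all genes). In *rve8* 8 of the 114 were likewise called higher and none lower, where 3.96% of all genes were called higher. Besides *DJC76*, *J8* (AT1G80920), a small chloroplast J protein, had 93.2, 84.1 and 97.0 CPM in the DEX libraries, against 41.9, 39.0 and 46.4 CPM in the mock libraries (log2 fold change 1.11 ± 0.08, adjusted p = 1.3e-08). *Fes1B* (AT3G53800), a nucleotide exchange factor of HSP70, had 96.4, 88.7 and 92.3 CPM in the DEX libraries, against 44.0, 43.4 and 42.9 CPM in the mock libraries (1.09 ± 0.07, adjusted p = 1.7e-09), with hardly any scatter within a group. *J8* and *Fes1B* responded more in *RVE8:GR* than in *rve8*, by 0.78 ± 0.11 and 0.64 ± 0.10 (adjusted p = 4.4e-04 and 6.6e-04), whereas *DJC76* also rose in *rve8* (log2 fold change 1.73 ± 0.14) and the difference of 0.76 ± 0.19 did not pass (adjusted p = 0.0296). Of 17 heat shock and chaperone genes tested only *DJC76* and the repressor-type heat shock factor *HSFB1* (AT4G36990) were called higher, and the list median was 0.07. The *HSFB1* call was lost without DEX 1, DEX 3, mock 1 or mock 2. In *rve8*, 10 of the same 17 genes were called higher, with a median of 0.58, against 3.96% of all genes, and for *HSP101*, *HSP70-4* and *HSP90.1* the response was lower in *RVE8:GR* by the test of the difference. *HSP90.1* (AT5G52640), a cytosolic chaperone, had 68.6, 67.3 and 66.3 CPM in the DEX libraries, against 50.6, 69.7 and 61.7 CPM in the mock libraries, and 128 ± 10.9 CPM in *rve8* + DEX and 60.9 ± 9.02 CPM in *rve8* + mock.

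Other genes with very small p-values were AT2G30600, a BTB/POZ-domain protein, with 336, 306 and 341 CPM in the DEX libraries, against 145, 154 and 167 CPM in the mock libraries (2.11-fold, adjusted p = 2.1e-09), and AT1G15125, an S-adenosylmethionine-dependent methyltransferase, with 109, 104 and 109 CPM in the DEX libraries, against 43.3, 52.1 and 48.8 CPM in the mock libraries (2.24-fold). AT5G24490, annotated as a 30S ribosomal protein, had 298, 299 and 285 CPM in the DEX libraries, against 157, 149 and 166 CPM in the mock libraries. The rise of AT2G30600 differed between the lines (0.78 ± 0.10, adjusted p = 8.3e-05), and AT1G15125 rose almost as much in *rve8* (log2 fold change 0.94 ± 0.08).

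The called transcripts that gained most in absolute level were *THI1*, *CP29*, *DIN10*, *GRP7*, *CAT3* and *GLDP1*. *THI1* (AT5G54770), the thiazole synthase of thiamine synthesis, had 2612, 2351 and 2651 CPM in the DEX libraries, against 1720.4, 1487 and 1552 CPM in the mock libraries (1.60-fold, adjusted p = 8.0e-07). *CP29* (AT3G53460), a chloroplast RNA-binding protein, had 2142, 1697 and 1970.4 CPM in the DEX libraries, against 1176, 1039 and 1170.2 CPM in the mock libraries (1.72-fold, adjusted p = 6.1e-07), and in *rve8* it stood at 1230.4 ± 31.7 CPM after DEX and 1146 ± 50.2 CPM after mock treatment, so that its response differed between the lines (0.68 ± 0.11, adjusted p = 7.5e-04). *CAT3* (AT1G20620), a catalase, had 1324, 1648 and 1382 CPM in the DEX libraries, against 1138, 960.1 and 1098 CPM in the mock libraries, and its call was lost without mock 2. *GLDP1* (AT4G33010), a subunit of the photorespiratory glycine decarboxylase, had 1782, 1645 and 1704 CPM in the DEX libraries, against 1310.0, 1331 and 1371 CPM in the mock libraries, a call lost when any library other than DEX 2 was left out, and in *rve8* its log2 fold change was 0.71 ± 0.07, a difference between the lines that did not pass (adjusted p = 0.0717). The largest losses in absolute level, besides *NIT1*, were in *CHLH* (AT5G13630), *ESM1* (AT3G14210) and AT1G09310, and in *SAMDC* (AT3G02470) with its overlapping upstream reading frame AT3G02468. The overlap means that the reads of this last pair cannot be told apart, and both calls were lost whichever of the 6 libraries was left out. The calls of *CHLH*, *ESM1* and AT1G09310 were each lost without DEX 1 and without DEX 3. That of *CHLH* was also lost without mock 1 or mock 2, and that of AT1G09310 without mock 1 or mock 3. *ESM1* also lost its call when only the *RVE8:GR* libraries were fitted.

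Of 18 genes known to rise in darkness and sugar depletion, 14 rose and none fell, with a median log2 fold change of 0.69. Over all genes 2.07% were called higher, a share not comparable with that of a list chosen with earlier results known. The asparagine synthetase gene *DIN6* (AT3G47340) had 20.5, 34.8 and 24.9 CPM in the DEX libraries, against 8.78, 3.52 and 4.52 CPM in the mock libraries, with the widest spread of the group, and its call (adjusted p = 0.00284) was lost without DEX 3, without mock 3, with a replicate block and when only the *RVE8:GR* libraries were fitted. *DIN10* (AT5G20250), annotated as a raffinose synthase family member, had 784, 619 and 749.6 CPM in the DEX libraries, against 296, 271 and 356 CPM in the mock libraries (2.33-fold, adjusted p = 5.3e-06). *DRM1* (AT1G28330), a dormancy-associated gene, had 106, 92.1 and 94.6 CPM in the DEX libraries, against 29.8, 29.3 and 43.5 CPM in the mock libraries. Its relative *DRM2* (AT2G33830) had 294, 271 and 291 CPM in the DEX libraries, against 82.0, 59.3 and 85.5 CPM in the mock libraries. In both genes every DEX value was more than 2 times the highest mock value. Among regulators, *BT2* (AT3G48360), a BTB and TAZ domain protein that responds to sugars and nitrate, had 88.4, 70.4 and 96.1 CPM in the DEX libraries, against 40.2, 42.9 and 49.9 CPM in the mock libraries, and *bZIP63* (AT5G28770), a target of the energy-sensing kinase SnRK1, had 43.4, 41.4 and 46.7 CPM in the DEX libraries, against 21.0, 24.7 and 26.6 CPM in the mock libraries. The related bZIP genes *bZIP11* (AT4G34590) and *bZIP1* (AT5G49450) rose 1.34-fold and 1.62-fold, with the *bZIP1* call lost without DEX 1, DEX 3, mock 1, mock 2 or mock 3. The class II trehalose-phosphate synthase genes *TPS8*, *TPS9* and *TPS11* rose 1.36-fold, 1.41-fold and 1.37-fold, *KMD4*, an F-box gene, 1.61-fold and *EXL2* 1.47-fold. The members not called were *TPS10*, *DIN9*, *DIN2* and *DIN11*, with log2 fold changes from -0.60 (*DIN11*) to 0.89 (*DIN2*). Without 1 library the number of members called was 10 to 14, lowest without DEX 1, DEX 3 or mock 1. It was 11 when only the *RVE8:GR* libraries were fitted. In *rve8*, 5 of the 18 were called higher, against 3.96% of all genes, and the median was 0.33. The response was larger in *RVE8:GR* by the test of the difference for *DRM2* (1.09 ± 0.18, adjusted p = 0.00745), *BT2* (1.08 ± 0.16, 0.00140) and *bZIP11* (0.52 ± 0.10, 0.00571). *DIN1* had a log2 fold change of 1.24 ± 0.40 in *rve8*, and its difference between the lines did not pass (adjusted p = 0.311).

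Genes of amino acid breakdown and of sugar transport were called higher and not lower. Of 20 genes of amino acid breakdown 4 were called higher and none lower, with a median of 0.21. *BCAT2* (AT1G10070), a mitochondrial branched-chain aminotransferase, had 2.76, 2.41 and 3.44 CPM in the DEX libraries, against 0.395, 0.518 and 1.32 CPM in the mock libraries. Its call was lost without DEX 3, mock 1 or mock 2. *DIN4* (AT3G13450) and *MCCA* (AT1G03090), which act further along the breakdown of branched-chain amino acids, rose 1.67-fold and 1.59-fold. *ProDH1* (AT3G30775), the proline dehydrogenase, had 246, 223 and 241 CPM in the DEX libraries, against 129.7, 139.7 and 163 CPM in the mock libraries. Of the 39 genes annotated as sugar transporters 5 rose and none fell, where 2.07% of all genes were called higher and 1.36% lower. *STP1* (AT1G11260), a hexose importer of the plasma membrane, had 162, 138 and 158 CPM in the DEX libraries, against 77.1, 69.8 and 83.0 CPM in the mock libraries (1.99-fold, adjusted p = 2.7e-06). *SWEET12* (AT5G23660), a sucrose exporter, had 33.2, 35.0 and 35.1 CPM in the DEX libraries, against 18.2, 16.9 and 14.4 CPM in the mock libraries (2.08-fold), and its partner *SWEET11* (AT3G48740), annotated in the nodulin MtN3 family and not among the 39, had 178, 179 and 202 CPM in the DEX libraries, against 127, 118 and 127 CPM in the mock libraries. The other called genes of the 39 were *STP4*, *STP14* and the nucleotide-sugar transporter gene AT4G18205, at 1.5-fold, 1.68-fold and 1.76-fold. *STP1*, *SWEET11*, *SWEET12* and AT4G18205 were called higher in *rve8* too.

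Starch metabolism gave few calls. Log2 fold changes were below 0 in 14 of 20 genes of starch breakdown (median -0.10) and in 14 of 16 genes of starch synthesis (median -0.15). Of the breakdown genes, *GWD1* (AT1G10760), the dikinase that opens starch to breakdown, had 402, 397 and 386 CPM in the DEX libraries, against 322, 287 and 269 CPM in the mock libraries and was called higher, with an equal log2 fold change in *rve8* (0.43 ± 0.07). *SEX4* (AT3G52180), the phosphatase that reverses that step, had 39.5, 44.6 and 44.1 CPM in the DEX libraries, against 61.7, 58.9 and 52.3 CPM in the mock libraries, and *DPE2* (AT2G40840), a cytosolic glucanotransferase, had 102, 119 and 100.4 CPM in the DEX libraries, against 151, 131 and 127 CPM in the mock libraries. These 2 calls were both lost without DEX 1 and without mock 1. Of 16 genes of starch synthesis *APL3* (AT4G39210), a large subunit of ADP-glucose pyrophosphorylase, fell 1.88-fold, with 18.8, 20.6 and 18.9 CPM in the DEX libraries, against 40.8, 37.6 and 31.1 CPM in the mock libraries. As with *GPT2*, its level in *rve8* was at 15.5 ± 1.93 CPM after DEX and 17.3 ± 0.406 CPM after mock treatment, below that of the *RVE8:GR* mock libraries. None of the other 15 passed.

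**Figure D3:**
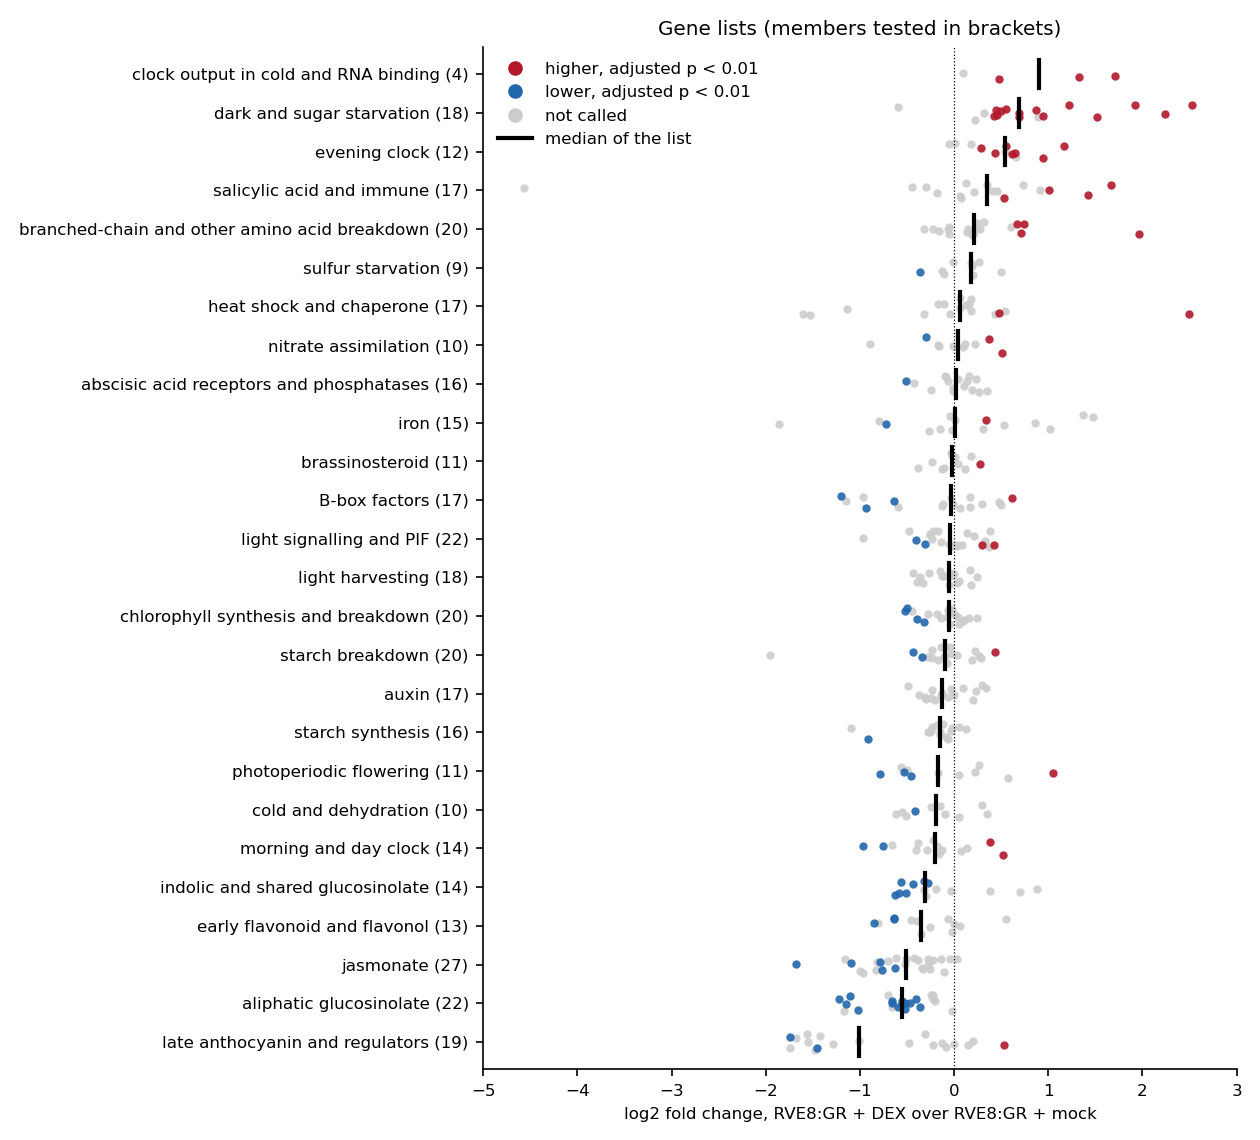
Log2 fold change (*RVE8:GR* + DEX over *RVE8:GR* + mock) of the tested members of 26 gene lists, with the number tested in brackets, ordered by the median of the list (vertical line). Points are genes, red where called higher, blue where called lower and grey where not called. Of the list of darkness and sugar starvation 14 of 18 members were called higher, and of the aliphatic glucosinolate list 14 of 22 were called lower.

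Genes of salicylic acid and immunity were called higher after DEX in both lines. Here 4 of 17 tested passed. *PR5* (AT1G75040), a thaumatin-like defence protein, had 10.6, 14.2 and 12.9 CPM in the DEX libraries, against 3.85, 3.16 and 4.92 CPM in the mock libraries (3.17-fold, adjusted p = 7.4e-07). *PBS3* (AT5G13320) and *ICS1* (AT1G74710), which act in salicylic acid synthesis, rose 2.68-fold and 1.44-fold, and *CBP60G* (AT5G26920), a factor that activates *ICS1*, rose 2.02-fold at adjusted p = 0.00985, just inside the threshold. Only 2 members were called without DEX 1, DEX 3, mock 1 or mock 2, since *ICS1* and *CBP60G* lost their calls. In *rve8*, 8 of the 17 were called higher, against 3.96% of all genes. There *PR5* had 14.0 ± 1.08 CPM after DEX and 3.26 ± 0.604 CPM after mock treatment. No member responded differently in the lines by the test of the difference. The fold change of *PR2* (AT3G57260), which was not called, was set by 1 library. Its level was at most 0.247 CPM in 5 of the 6 libraries and 9.89 CPM in mock 3.

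Glucosinolates are sulfur-rich defence compounds of the cabbage family. Aliphatic ones are made from methionine and indolic ones from tryptophan. Of 22 genes of the aliphatic branch tested, 14 fell and none rose, all 22 log2 fold changes were below 0, and the median was -0.55. *MYB29* (AT5G07690), an activator of the branch, had 17.5, 16.1 and 17.4 CPM in the DEX libraries, against 36.0, 38.7 and 34.8 CPM in the mock libraries (log2 fold change -1.10 ± 0.08, adjusted p = 1.3e-08). The related activator *MYB28* (AT5G61420) measured 76.1, 73.6 and 74.1 CPM in the DEX libraries, against 86.1, 81.1 and 91.0 CPM in the mock libraries and was not called. In chain elongation of methionine, *BCAT4* (AT3G19710) had 75.6, 74.5 and 67.1 CPM in the DEX libraries, against 100.1, 109 and 104 CPM in the mock libraries and *MAM1* (AT5G23010) had 188, 176 and 171 CPM in the DEX libraries, against 287, 254 and 244 CPM in the mock libraries, with *IPMI-SSU2*, *IPMI-SSU3*, *IPMDH1* and the chloroplast transporter *BAT5* also lower. *IPMDH1* passed by little (adjusted p = 0.00967) and lost its call whichever of the 6 libraries was left out. In core synthesis, the cytochrome P450 genes *CYP79F1* (AT1G16410), *CYP79F2* and *CYP83A1* (AT4G13770) fell, with 78.6, 86.6 and 58.0 CPM in the DEX libraries, against 186, 189 and 148 CPM in the mock libraries and, for *CYP83A1*, 159, 155 and 145 CPM in the DEX libraries, against 243, 247 and 234 CPM in the mock libraries. The *CYP79F1* call was lost without DEX 1, mock 1 or mock 2 and when only *RVE8:GR* libraries were fitted. *UGT74C1* and *SOT17* complete the core. The side chain is then changed by *FMO-GSOX1* (AT1G65860), with 13.9, 12.9 and 11.9 CPM in the DEX libraries, against 29.1, 30.1 and 26.7 CPM in the mock libraries (2.21-fold lower, adjusted p = 7.8e-08), and by *AOP2* (AT4G03060), with 7.30, 9.37 and 7.85 CPM in the DEX libraries, against 17.0, 17.6 and 15.4 CPM in the mock libraries (2.04-fold lower). A further flavin monooxygenase gene outside the list, *FMO GS-OX3* (AT1G62560), fell 2.54-fold. The number of members called was 12 to 15 when 1 library was left out.

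Of 14 genes of the indolic branch and of the steps that both branches share, 7 fell and none rose, with a median of -0.31. *CYP79B2* (AT4G39950) and *CYP79B3* (AT2G22330), which open the indolic branch, fell 1.43-fold and 1.5-fold. The shared C-S lyase *SUR1* (AT2G20610) had 119, 119 and 112 CPM in the DEX libraries, against 172, 179 and 168 CPM in the mock libraries (adjusted p = 2.2e-06). *CYP83B1*, *UGT74B1* and *SOT16* were lower by 1.22-fold to 1.35-fold. *APK1* (AT2G14750), which makes the sulfate donor PAPS, fell 1.54-fold. Its relative *AKN2* (AT4G39940) fell too (log2 fold change -0.69), with 60.2, 58.8 and 56.6 CPM in the DEX libraries, against 90.5, 102 and 90.8 CPM in the mock libraries. The indolic activators *MYB34* and *MYB51* were not called, with log2 fold changes of -0.30 ± 0.07 and 0.38 ± 0.13. The same lists moved in plants without the fusion protein. In *rve8*, 13 of the 22 aliphatic and 6 of the 14 indolic and shared genes were called lower, against 1.57% of all genes, with medians of -0.49 and -0.24. Only *MYB29* among them responded more in *RVE8:GR* (-0.62 ± 0.11, adjusted p = 0.00301).

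Anthocyanin genes had the lowest median of the 26 lists, -1.01 over 19 tested members of the late pathway, but few calls. *TT19* (AT5G17220), which carries anthocyanins to the vacuole, had 4.77, 6.40 and 4.36 CPM in the DEX libraries, against 21.8, 18.8 and 11.6 CPM in the mock libraries (log2 fold change -1.74 ± 0.23, adjusted p = 2.7e-04). The MYB activator *PAP1* (AT1G56650) had 2.85, 3.66 and 3.73 CPM in the DEX libraries, against 11.8, 10.6 and 5.49 CPM in the mock libraries (adjusted p = 2.9e-04). The enzymes *DFR* (AT5G42800) and *LDOX* (AT4G22880) showed the same layout without passing, with 12.7, 15.5 and 11.2 CPM in the DEX libraries, against 56.8, 48.9 and 26.6 CPM in the mock libraries for *DFR* and 8.00, 13.8 and 8.89 CPM in the DEX libraries, against 41.1, 39.5 and 18.1 CPM in the mock libraries for *LDOX* (adjusted p = 0.0742 and 0.0326). In each of these genes mock 3 was the lowest mock library, and without mock 3 the number of late genes called lower was 7 in place of 2. The exact test gave 10 and DESeq2 gave 8. In *rve8* the levels lay near those of the DEX libraries, as with *TT19* at 5.44 ± 1.22 CPM after DEX and 6.34 ± 0.924 CPM after mock treatment. *MYBL2* (AT1G71030), a repressor of the pathway, rose 1.45-fold, with 99.8, 92.7 and 112 CPM in the DEX libraries, against 75.2, 64.5 and 70.8 CPM in the mock libraries. Of 13 early flavonoid and flavonol genes, *4CL3* (AT1G65060), *UGT78D2* (AT5G17050) and the flavonol activator *MYB111* (AT5G49330) fell, by 1.55-fold, 1.55-fold and 1.80-fold. The *MYB111* call was lost without DEX 2, DEX 3, mock 1 or mock 2. *UGT78D2*, a flavonoid 3-O-glucosyltransferase, had 20.8, 21.1 and 23.0 CPM in the DEX libraries, against 38.6, 33.0 and 28.9 CPM in the mock libraries, and its response differed between the lines (-1.03 ± 0.14, adjusted p = 2.5e-04).

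Jasmonate is made in plastids and peroxisomes from linolenic acid, and its signal is held back by JAZ repressors. Of 27 genes 26 had a log2 fold change below 0, with a median of -0.51, and 5 were called. *OPR3* (AT2G06050), the peroxisomal reductase, had 38.7, 37.6 and 31.6 CPM in the DEX libraries, against 58.1, 68.4 and 57.2 CPM in the mock libraries (1.70-fold lower). *AOS* (AT5G42650) had 99.8, 117 and 106 CPM in the DEX libraries, against 203, 215 and 138 CPM in the mock libraries and *AOC3* (AT3G25780) had 15.3, 16.2 and 16.2 CPM in the DEX libraries, against 22.9, 30.3 and 20.6 CPM in the mock libraries. *JAZ5* (AT1G17380) had 3.88, 5.70 and 6.08 CPM in the DEX libraries, against 9.07, 14.5 and 9.72 CPM in the mock libraries and *JAZ8* (AT1G30135) had 1.03, 1.3 and 1.03 CPM in the DEX libraries, against 2.27, 4.77 and 3.83 CPM in the mock libraries. In all 5 mock 2 was the highest library. Only *OPR3*, 1 member, was still called without DEX 1 or without mock 2. None was called in *rve8*, where the median was -0.18, and no member differed between the lines.

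Of 20 genes of chlorophyll metabolism 4 fell and none rose. *HEMA1* (AT1G58290), the glutamyl-tRNA reductase at the start of tetrapyrrole synthesis, had 164, 175 and 176 CPM in the DEX libraries, against 239, 258 and 231 CPM in the mock libraries (log2 fold change -0.50 ± 0.07, adjusted p = 6.0e-05). *GUN4* (AT3G59400), which stimulates magnesium chelatase, had 126, 133 and 144 CPM in the DEX libraries, against 197, 181 and 201 CPM in the mock libraries (-0.52 ± 0.07). *CHLH* (AT5G13630), the large subunit of that chelatase, had 774, 854 and 803 CPM in the DEX libraries, against 1069, 1002 and 959.5 CPM in the mock libraries. *CAO* (AT1G44446), which makes chlorophyll b, had 85.0, 98.5 and 96.0 CPM in the DEX libraries, against 122, 127 and 118 CPM in the mock libraries. Of these 4 genes 2 were called without DEX 1 or without mock 2. All 4 had positive log2 fold changes in *rve8*, of which only that of *CHLH* passed, and all 4 responded differently in the lines, by -0.76 (*HEMA1*), -0.60 (*GUN4*), -0.68 (*CHLH*) and -0.64 (*CAO*) on the log2 scale (adjusted p from 1.2e-04 to 0.00140). Of 18 genes of light harvesting none was called (median -0.06), a count near the 3.43% over all genes. In *rve8*, 12 of them were called higher, against 3.96% of all genes. For 5 of the 18 the response was lower in *RVE8:GR* by the test of the difference, against 0.947% of all genes.

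Mineral nutrition and hormones gave scattered single calls. Of the nitrate list the glutamate dehydrogenase genes *GDH1* (AT5G18170) and *GDH2* (AT5G07440) rose 1.42-fold and 1.3-fold and the nitrite reductase gene *NIR1* (AT2G15620) fell 1.23-fold. *APR2* (AT1G62180), the reductase of sulfate assimilation, fell 1.28-fold, with a response opposite in sign in *rve8* (-0.65 between the lines, adjusted p = 0.00135). Of the iron list *BTS* (AT3G18290), which limits iron uptake, was called higher and *FIT* (AT2G28160), the factor that switches uptake on, lower, with 6.41, 6.12 and 6.36 CPM in the DEX libraries, against 8.19, 11.4 and 11.6 CPM in the mock libraries. In *rve8* the log2 fold change of *FIT* was -1.48 ± 0.15, and the difference between the lines did not pass (adjusted p = 0.0591). Each of these 6 calls was lost without at least 1 library (*GDH1* without mock 2 only). Among receptors and phosphatases of abscisic acid only *HAB1* (AT1G72770), a PP2C phosphatase, was called, 1.43-fold lower. Among cold and dehydration genes only *LTI78* (AT5G52310) was, 1.33-fold lower, and among brassinosteroid genes only *CPD* (AT5G05690), 1.21-fold higher. These last 3 calls were each lost without DEX 1 and DEX 3 in turn. None of 17 auxin genes was called. None of the 5 reference genes was called, and their median was 0.0050.

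Across the 26 lists, 409 of 428 genes were tested, and 46 were called higher and 53 lower. Since the lists were written around pathways that had been seen to move, their share of calls is not comparable with the 2.07% and 1.36% over all genes. Families were also defined by words in the annotation. DNAJ proteins (8 higher of 114), sugar transporters (5 of 39), bZIP factors (3 of 48) and ethylene response factors (3 of 10) had calls only upwards. Over all genes 2.07% were called higher and 1.36% lower, so none lower is near that share in families of these sizes. In *rve8* these families had 8, 3, 1 and 2 genes called higher, in the same order, and none lower. There 3.96% of all genes were called higher and 1.57% lower. The median log2 fold change of the ethylene response factors was -0.07 in *RVE8:GR*. WRKY, NAC domain and late embryogenesis abundant families also had calls only upwards, 1 gene each. Cytochrome P450 genes were called in both directions, 9 higher and 8 lower of 168, and UDP-glycosyltransferases likewise, 5 and 4 of 111. Leucine-rich repeat and receptor-like kinases had 1 higher and 5 lower of 228. Of 316 ribosomal protein genes 1 was called higher and none lower, while 32 were called lower in *rve8*, against 1.57% of all genes there. Histones (95), pentatricopeptide proteins (244) and cyclins (80) had no call in either direction, as did the smaller families of SAUR-like (49) and lipid transfer proteins (14), where a count of 0 is near the 3.43% over all genes. Words in the annotation miss members of a family.

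**Figure D4:**
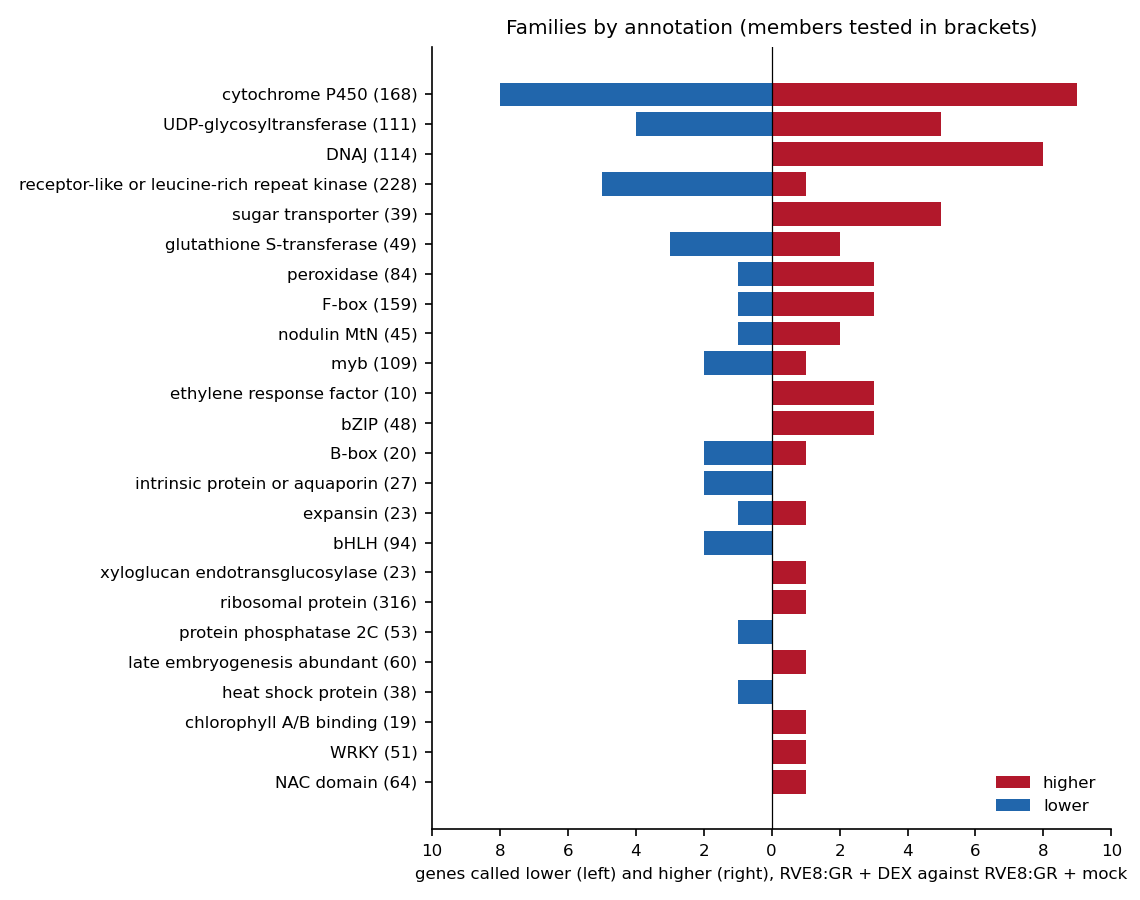
Number of genes called lower (left) and higher (right) in *RVE8:GR* + DEX against *RVE8:GR* + mock in families defined by words in their annotation, with the number of members tested in brackets. Families with no call are left out. The cytochrome P450 family has 9 genes called higher and 8 lower of 168, and the DNAJ family has 8 higher and none lower of 114. Of all genes tested, 2.07% were called higher and 1.36% lower.

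The response of *RVE8:GR* can be set beside that of *rve8*, which shares no library with it. In *rve8*, DEX was followed by 790 genes called higher (3.96%) and 313 called lower (1.57%), 5.53% of genes in all. Of the 414 genes called higher in *RVE8:GR*, 169 were also called higher there (40.8% of the 414 and 21.4% of the 790) and 3 were called lower. The sign was the same in both lines for 92.8% of the 414, against 61.9% of all genes tested, and their median log2 fold change in *rve8* was 0.33. Of the 271 genes called lower, 37 were also called lower in *rve8* (13.7% of the 271 and 11.8% of the 313), 14 were called higher, and the sign was the same for 57.6%, with a median of -0.06. The test of the difference between the lines passed for 48 genes in the positive direction (0.24%) and 189 in the negative direction (0.947%), 1.19% of all genes. Of the 414 genes called higher 32 passed with a larger response in *RVE8:GR* and 1 with a smaller one, and of the 271 called lower 84 passed, all with a more negative response in *RVE8:GR*. The difference contains the change in *RVE8:GR* by which these genes were called. Its direction and the share that passed are therefore in part set by that choice. The short EE was present in 40.0% of the promoters of genes called higher in both lines (32.8% to 47.6%) and in 46.1% of those called higher in *RVE8:GR* and not in *rve8* (39.9% to 52.4%). Among genes called higher in *rve8* only, it was in 22.1% (19.0% to 25.6%).

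**Figure D5:**
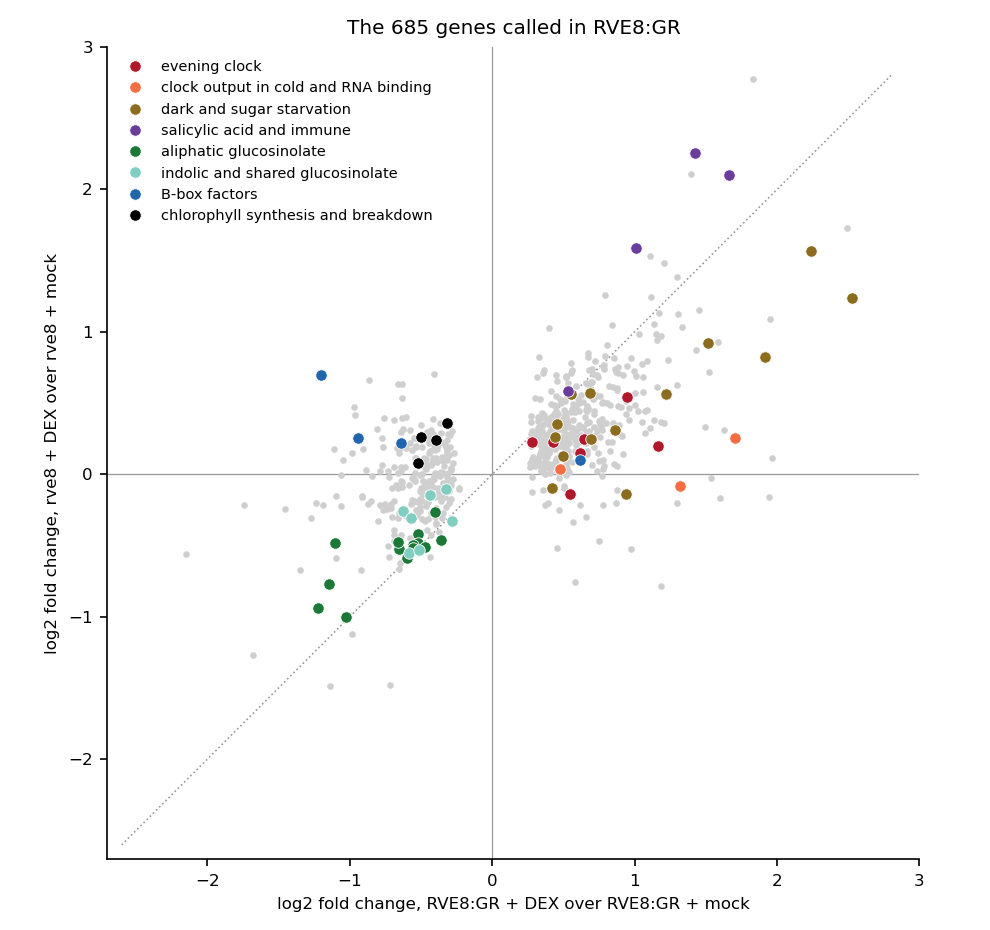
Log2 fold change after DEX in *RVE8:GR* (horizontal) and in *rve8* (vertical) of the 685 genes called in *RVE8:GR*, with members of 8 lists in colour and all others in grey. The dotted line marks equal responses. The median of the genes called higher is 0.56 in *RVE8:GR* and 0.33 in *rve8*, and that of the genes called lower is -0.50 in *RVE8:GR* and -0.06 in *rve8*.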

How the data were processed

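Whole seedlings gave 12 strand-specific libraries, and the deposited table holds unnormalized counts, 1 value for each library and gene model. Per the study's methods, BWA was used against TAIR10 cDNA, and reads on the reverse strand were counted. The table's columns were matched to samples by their names (0 not mapped), and empty entries (33457) were read as 0. Totals were 15975840 to 21713130 counts per library.

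Tests were run with edgeR 4.0.16 in R 4.3.3, as a robust quasi-likelihood test with TMM scaling and with 4 groups fitted together, no covariate added. Models entered (19961) where 3 or more of 12 libraries reached 1 CPM. Adjusted p-values (Benjamini-Hochberg) under 0.01 over all models were called. The contrasts were DEX against mock in *RVE8:GR*, the same in *rve8*, and their difference. Standard errors are the absolute log2 fold change over the square root of F. The code was tested on simulated data with 200 of 19792 genes changed by 1 on the log2 scale, of which 200 were recovered with 2 false calls.

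Named are the 12 genes with the largest rise and the 12 with the largest fall among those called with a mean of at least 5 CPM and no overlap of libraries, the 6 with the smallest p and the 6 with the largest change in CPM in each direction, members of the gene lists, and called members of annotation families with 6 or fewer. The comparison, the lists and the families were chosen with earlier results of these data known.

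Gene symbols and coordinates are from the TAIR10.1 annotation, in which 24858 of 26245 models were matched by name, 19 by locus and 1368 not at all. Promoters of 19324 tested genes were searched for motifs in Python 3.11.15 (numpy 2.4.6, pandas 2.3.3, scipy 1.17.1), with 95% Wilson intervals for shares, which cover counting error only. Figures were drawn with matplotlib 3.10.9. A gene with at least 10% of its 50-base stretches in another cDNA was taken as uncertain, since how reads with several matches were counted is not given in the sources used here. The labels do not say that a replicate number marks a shared batch, and a fit with the replicate number as a block was run as an alternative. The other alternatives were DESeq2 1.42.0, edgeR's exact test (prior df 50), other scalings and filters, a separate fit of the *RVE8:GR* libraries, thinned libraries, an adjusted p under 0.05, shorter promoters and leaving out each library. An exact permutation test of 3 libraries against 3 cannot go below p = 0.1.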

Additional observations from a re-analysis of the deposited data

Results flagged for a closer look

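For 39 genes named in the report and called in *RVE8:GR*, the response to DEX also differed between *RVE8:GR* and *rve8* by a test of the difference itself (the interaction of line and treatment in edgeR's quasi-likelihood test, Benjamini-Hochberg adjusted p under 0.01). For a further 16 genes of the lists the difference passed although the change in *RVE8:GR* alone did not. Over all genes 0.24% passed with a more positive and 0.947% with a more negative response in *RVE8:GR*. The values below are the log2 fold change after DEX in *RVE8:GR* minus that in *rve8*. They contain the change in *RVE8:GR* by which the 39 genes were called, so their direction is in part set by that choice.

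Of the 39 called genes 16 responded more positively in *RVE8:GR*. They include the evening clock genes *PRR5* (0.97) and *ELF4* (0.68) and the clock-controlled *COR27* (1.45), *COR28* (1.4) and *COL9* (0.68). The difference was largest for the defensin gene *PDF2.1* (2.1), followed by AT1G07050 (1.56), and it also passed for AT3G62550 (1.16) and AT2G30600 (0.78). Starvation genes were represented by *DRM2* (1.09), *BT2* (1.08) and *bZIP11* (0.52), co-chaperones by *J8* (0.78) and *Fes1B* (0.64), and the difference passed for the chloroplast RNA-binding protein gene *CP29* (0.68) and the xyloglucan endotransglucosylase gene *XTH9* (0.58). Of these 16, *BT2*, *bZIP11*, *XTH9*, *PDF2.1*, *COR28*, *ELF4* and AT1G07050 had a log2 fold change below 0 in *rve8*, where none of these 7 was called.

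The other 23 called genes responded more negatively. Clock, flowering and B-box genes were *BBX16* (-1.89), *PRR9* (-1.38), *BBX18* (-1.19), *LNK3* (-1.16), *BBX25* (-0.86), *CDF1* (-0.81), *COL1* (-0.75) and *CDF3* (-0.73), with the light-signalling genes *SPA1* (-0.60) and *SPA3* (-0.59). Plastid and chlorophyll genes were *GPT2* (-1.04), *APL3* (-0.76), *HEMA1* (-0.76), *CHLH* (-0.68), *CAO* (-0.64) and *GUN4* (-0.60). Those of specialised metabolism and sulfur were *UGT78D2* (-1.03), *NIT1* (-0.74), *APR2* (-0.65) and *MYB29* (-0.62). The remaining ones were the phosphatase gene *HAB1* (-0.76), the aquaporin gene *PIP2A* (-0.72) and the mannan synthase gene *ATCSLA09* (-0.61).

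Among the 16 genes not called in *RVE8:GR*, 13 were called higher in *rve8*. These were the clock genes *CCA1* (-1.17), *LNK1* (-0.55) and *LNK2* (-0.56), the flowering gene *COL2* (-1.13), the heat-shock genes *HSP101* (-1.37), *HSP70-4* (-1.15) and *HSP90.1* (-0.92), the beta-amylase genes *BAM9* (-0.80) and *BAM1* (-0.58), and the light-harvesting genes *LHCB2.3* (-0.94), *LHCB1.1* (-0.57), *LHCB1.4* (-0.54) and *LHCB1.2* (-0.47). The last 3 share 20.5%, 13.7% and 10.6% of their 50-base stretches with other transcripts, so how the counting split reads between them is uncertain. *BBX32* (-1.78) and *LHCB3* (-0.53) were called in neither line alone. The cold-responsive *KIN1* (1.61) was called lower in *rve8*.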

How the results depend on the processing

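Genes called higher numbered 618 with edgeR's exact test, 540 with DESeq2, 367 without TMM factors, 403 with upper-quartile factors, 462 without the filter on low counts, 410 with at least 10 counts in every library, 409 with only the *RVE8:GR* libraries fitted, 400 with libraries thinned to 15975840 counts and 755 at an adjusted p under 0.05. Genes called lower numbered 472 with the exact test and 590 at an adjusted p under 0.05, and between 245 and 401 under the other settings above. With each library left out in turn they numbered 226 to 412 (higher) and 143 to 256 (lower), from fits with fewer samples. Counts of higher genes fell by over 1.5 times without DEX 1 (241), DEX 3 (226), mock 1 (257) or mock 2 (234), and of lower genes without DEX 1 (143), DEX 3 (157) or mock 2 (143). With a replicate block they numbered 480 and 311. The deviations of same-numbered libraries from their group means correlated at -0.015, 0.063 and 0.17 over genes, and not every library correlated best with its own number. With 3 libraries a group, these values cannot decide whether a replicate number marks a shared batch.

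The short EE was in 38.0%, 15.7% and 14.6% of promoters of genes called higher, lower and not called within 1000 bp of the start codon, and in 19.4%, 6.37% and 5.62% from 250 bp before to 50 bp after the transcript start. These windows are shorter.

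Of 167 named genes that were called, 93 kept their call under every alternative other than the adjusted p threshold, 97 kept it without each library in turn, and none was called in the opposite direction. Of 331 named genes not called, 62 were called under at least 1 alternative. Depth limits weak genes most, since 3 counts equal 0.138 to 0.188 CPM over the 12 libraries.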
